A study of Bos taurus with 30 samples.

Results

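The 2 kinds of endometrium of the pregnant cow were compared in 5 animals whose pregnancy came from artificial insemination (AI). The 10 arrays of these 5 animals were chosen by their AI label, out of 30 arrays of 15 animals. The other arrays held 5 animals that received an embryo fertilised in vitro (IVF-ET) and 5 that carried a clone obtained through somatic cell nuclear transfer (SCNT). Every array carried caruncular and intercaruncular RNA of the same animal, 1 tissue in the dye Cy3 and the other in Cy5, and each AI animal had 2 arrays with the dyes exchanged. The labels give neither breed, age, parity nor stage of pregnancy, and no group without a pregnancy was analysed here.

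Caruncles are the raised, glandless areas of the ruminant uterus to which the placenta attaches, and there they form the maternal side of the placentomes. The intercaruncular endometrium between them holds the glands, whose secretions feed the conceptus. Both areas share a surface epithelium, a stroma rich in collagen, vessels and resident leukocytes. In cattle the elongating conceptus secretes interferon tau, which induces many interferon-stimulated genes in the endometrium.

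A value here is the log of 1 tissue over the other on an array, with the array median set to 0. It is taken as log2, although the labels name no base. Spots of a probe were averaged first and the pair of arrays of each animal next, and n counts animals, numbered 1 to 5. The values were read as deposited, that is, as already turned to 1 order of the tissues. The labels do not say which tissue is the numerator. The text speaks of a positive side and a negative side of 0, and calls no tissue higher. All 5 AI arrays with the caruncle in Cy3 had 100% of their values written with 4 decimals, whereas the 5 arrays with the caruncle in Cy5 had between 90.0% and 90.6% so written. In the reading as dye ratios, 1 orientation still has to be turned. It changes the side of 50 of the 73 named genes and of 16 of the 25 gene lists described here, and its values for the leading genes and for these lists follow the results as deposited. A ratio holds no level, so the presence of each tissue could not be checked from defining markers, and fewer cells of a type cannot be told apart from less RNA per cell.

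Of 27648 spots, between 26744 and 27641 had a value on each array, and 13784 of 13824 probes were tested. Of all probes, 8645 carried 1 gene symbol, which gave 8058 genes with 1 probe each. Duplicate spots of a probe correlated within an array at r between 0.562 and 0.903. For interferon-stimulated genes, 1 array of animal 1 stood apart. With the caruncle in Cy5, 19 of 21 of these genes lay below -1, against 0 of 21 on the other array of that animal. The median of 34 stromal genes was 0.76 on the first of these arrays and -0.69 on the second. Leaving out animal 1 moved the mean of 18 of the 73 named genes by over 1.5 times, and these are given with and without it. The same count was 7, 8, 11 and 7 for animals 2 to 5.

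The first question was whether the 2 arrays of an AI animal measured the same tissue difference. Over the probes of the array, which do not count as replicates, the pair of arrays correlated in animals 1 to 5 at r = -0.08, -0.07, 0.18, -0.11 and -0.22. Only animal 3 lay above 0, and in animals 1, 4 and 5 only 47.8%, 42.3% and 39.4% of the probes stood on the same side of 0 on both arrays. The same correlation had a median of 0.23 in SCNT animals, with a range from 0.08 to 0.65, and of -0.09 in IVF-ET animals, with a range from -0.32 to 0.30. With the mean of each dye orientation taken off, the 5 AI values were 0.01, 0.03, 0.19, -0.01 and 0.08. That mean also holds any tissue difference shared by the animals. With only the contrast between the 2 orientation means taken off, the values were 0.07, 0.08, 0.41, 0.18 and 0.14. This version keeps the mean of all arrays in both arrays of an animal, which by itself raises the correlation. Neither version therefore decides whether the 2 arrays measured the same tissue difference.

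Arrays of different AI animals agreed more often when they carried the dyes the same way round. Of 20 pairs of arrays of different animals with the same orientation, 15 correlated above 0, against 6 of 20 pairs with opposite orientation. The highest correlation was that of animals 3 and 4 with the caruncle in Cy3 (r = 0.47), and the lowest joined animals 4 and 5 in opposite orientations (r = -0.43). Averaged over their 2 arrays, the animals correlated at a median of r = 0.00 over 10 pairs, from -0.23 to 0.33, with 5 pairs above 0.

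**Figure D1:**
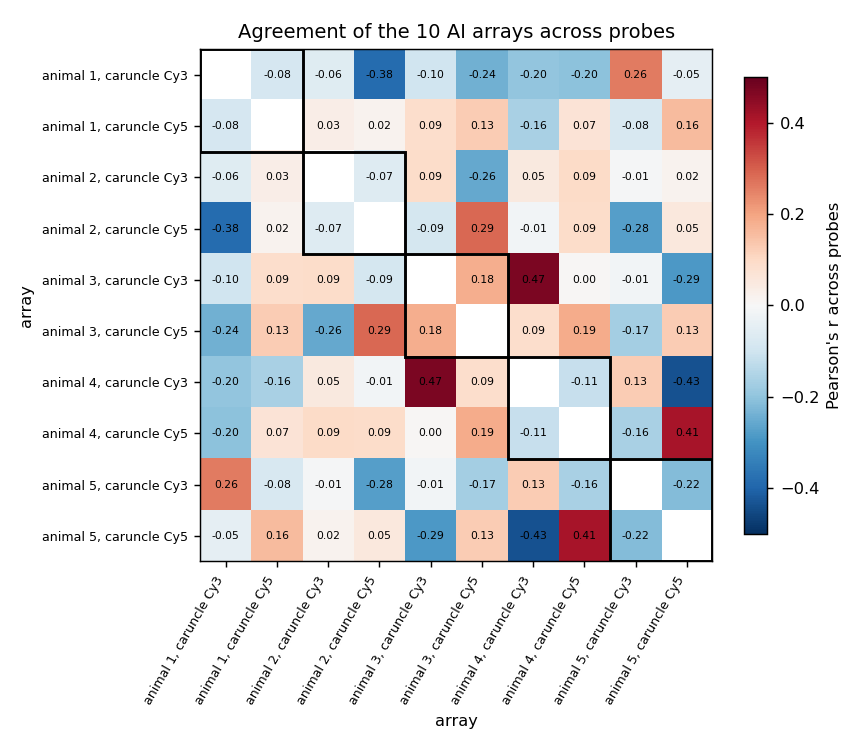
Pearson's r across probes for each pair of the 10 AI arrays, coloured from -0.5 (blue) to 0.5 (red). Axis labels give the animal and the dye of its caruncle, and black squares frame the 2 arrays of an animal: only the square of animal 3 holds a positive value, 0.18.

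Probes printed next to each other also shared part of their AI values. The mean AI ratio of a probe correlated with that of its neighbour at r = 0.39, whereas the SCNT mean gave 0.06 and the IVF-ET mean 0.12. The contrast between the dye orientations, which holds no tissue difference under the reading used, gave 0.52. The size of the tissue ratio was small beside both kinds of spread. Over probes, the median absolute AI mean was 0.07, the median SD over animals 0.23 and the median distance of an array from the mean of its animal 0.17.

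No gene passed the test of the AI ratio against 0. With limma and Benjamini-Hochberg adjustment over all probes, 0 of 13784 (0%) passed an adjusted p of 0.05, and the smallest adjusted p was 1.00. At an unadjusted p under 0.05 there were 531 probes. Of the 8058 genes with 1 probe each, 342 (4.24%) were under it, where p-values without any tissue difference would put a share of 0.05 on average. Leaving out any 1 animal also gave 0, and the smallest adjusted p was then 0.0776, without animal 5. Among the 8058 genes, 239 (2.97%) had all 5 animals on the positive side and 159 (1.97%) all 5 on the negative side. Over all tested probes these counts were 368 (2.67%) and 287 (2.08%). Without animal 1, the other 4 animals agreed on the positive side for 496 genes (6.16%) and on the negative side for 411 (5.1%). All 10 arrays stood on 1 side for 3 genes with positive values (0.0372%) and 4 genes with negative values (0.0496%). Random signs would also put some genes on 1 side in all 5 animals or on all 10 arrays. That share was not computed, so these counts are not read as agreement beyond it. The genes described next are those with the smallest p among the genes with all 5 animals on a side, so that agreement of the animals is a condition of being named and not a result.

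On the positive side the leading gene was SNAI2, a zinc finger repressor of epithelial genes that marks mesenchymal cells. Its ratio was 0.89, 0.50, 0.79, 0.68 and 0.25 in animals 1 to 5, with a mean of 0.62 ± 0.26 (SD, n = 5). Of its 10 arrays, 9 were positive, and the exception was the array of animal 1 with the caruncle in Cy3, at -0.64 against 2.42 on the other array of that animal. SPARC, a collagen-binding protein of the matrix, was at 0.83, 0.32, 1.12, 0.69 and 0.08 (0.61 ± 0.42). Animal 3 was highest and animal 5 closest to 0, and the arrays of animal 1 again opposed each other (-1.05 and 2.72). AEBP1, whose secreted form also binds collagen, was at 0.41, 0.36, 0.65, 0.41 and 0.13 (0.39 ± 0.19).

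Of the positive genes, 3 others act where cells grip the matrix or read tension, although this grouping by function was not tested. ZYX (zyxin), a component of focal adhesions, was at 0.60, 0.31, 0.52, 0.22 and 0.49 in animals 1 to 5 (0.43 ± 0.15). TGFB1I1, an adaptor of focal adhesions, was at 0.63, 0.14, 0.76, 0.40 and 0.57 (0.50 ± 0.24). TEAD2, a DNA-binding partner of the Hippo pathway coactivators, was at 0.77, 0.21, 0.64, 0.34 and 0.73 (0.54 ± 0.25). In these 3 genes animals 2 and 4 were the lowest, and between 7 and 8 of 10 arrays were positive.

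The other positive genes came from several processes. DACT1, which binds Dishevelled and tempers WNT signalling, was at 0.21, 0.40, 0.64, 0.36 and 0.64 (0.45 ± 0.19, SD, n = 5). BOLA-DRB3, a beta chain of the bovine class II antigen-presenting molecules, was at 0.48, 0.46, 0.43, 0.37 and 0.20 (0.39 ± 0.11), the narrowest spread of the 10. Its other probes, however, had means of 0.21 and 0.02. RPS18, a protein of the small ribosomal subunit, was at 0.37, 0.23, 0.29, 0.61 and 0.59 (0.42 ± 0.17). ZNRF1, a ubiquitin ligase, was at 0.60, 0.15, 0.54, 0.19 and 0.53 (0.40 ± 0.22). The lowest animal was animal 1 for DACT1, animal 5 for BOLA-DRB3 and animal 2 for RPS18 and ZNRF1.

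The positive means came unevenly from the dye orientations. In all 10 genes the mean over the arrays with the caruncle in Cy5 was the higher, and in 4 of them the mean over the arrays with the caruncle in Cy3 was below 0. TEAD2 was at 1.01 with the caruncle in Cy5 and at 0.06 with it in Cy3. The same means were 0.88 and 0.12 for TGFB1I1, 0.75 and 0.03 for AEBP1, 0.87 and -0.01 for ZYX, 0.96 and -0.06 for DACT1, 0.93 and -0.16 for BOLA-DRB3 and 0.93 and -0.13 for ZNRF1. SNAI2, with 0.84 and 0.40, SPARC, with 0.84 and 0.37, and RPS18, with 0.53 and 0.30, were positive in both. Read as dye ratios, all 10 changed side, SNAI2 to -0.22, SPARC to -0.23 and TEAD2 to -0.48. With a running median over neighbouring probes taken off, TGFB1I1 went to 0.16, TEAD2 to 0.28, DACT1 to 0.25 and ZNRF1 to 0.10, while SNAI2 was at 0.54 and SPARC at 0.60. Most of the 10 genes stood early in print order. ZNRF1, TGFB1I1, TEAD2 and DACT1 were at spots 11, 25, 53 and 279 of 27648. ZYX, BOLA-DRB3, AEBP1 and RPS18 were at spots 1013, 1077, 1589 and 2337, and SNAI2 and SPARC at 14197 and 19081. The part of print order in the choice of these genes was not tested.

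On the negative side stood CGN (cingulin), a protein of epithelial tight junctions. Its ratio was -0.07, -0.36, -0.57, -0.69 and -0.33 in animals 1 to 5 (-0.41 ± 0.24, SD, n = 5). Of its 10 arrays, 9 were negative, and the array of animal 1 with the caruncle in Cy3 was positive at 0.66. BTC (betacellulin), a growth factor that activates EGF receptors, was at -0.70, -0.18, -0.41, -0.22 and -0.34 (-0.37 ± 0.21). It was negative on all 10 arrays, between -0.96 and -0.02. PFKFB3, a regulator of glycolysis, was at -0.33, -0.59, -0.52, -0.20 and -0.13 (-0.35 ± 0.20). Like CGN, it was negative on 9 of 10 arrays, with the same array of animal 1 above 0.

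Genes of signalling and the cell cycle were also among the 10 negative ones. ARHGDIB, best known from leukocytes, was at -0.56, -0.64, -0.72, -0.25 and -0.15 (-0.46 ± 0.25). CCND3, a D-type cyclin, was at -0.71, -0.70, -0.29, -0.40 and -0.02 (-0.42 ± 0.29), so that animal 5 was next to 0. TNFAIP1, an adaptor of a ubiquitin ligase, was at -0.58, -0.26, -0.66, -0.49 and -0.19 (-0.44 ± 0.20), while its other probe had a mean of 0.09. PHF19, which helps polycomb complexes bind chromatin, was at -0.29, -0.52, -0.12, -0.45 and -0.31 (-0.34 ± 0.15).

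The last of the negative genes were FAM98A, ZFYVE19 and CHST6. FAM98A was at -0.25, -0.38, -0.47, -0.19 and -0.35 (-0.33 ± 0.11), and ZFYVE19, which acts in the last step of cell division, at -0.37, -0.26, -0.40, -0.53 and -0.12 (-0.34 ± 0.15). CHST6, which sulphates keratan chains, ranged more widely, at -0.65, -0.13, -0.83, -0.01 and -1.10 (-0.54 ± 0.47). Its arrays followed the dyes: with the caruncle in Cy3 they were at -1.23, -0.69, -1.70, -0.28 and -1.65, and with the caruncle in Cy5 at -0.07, 0.43, 0.03, 0.27 and -0.56. CHST6 was not alone in this. The means with the caruncle in Cy3 and in Cy5 were -0.80 and -0.07 for TNFAIP1 and -0.59 and -0.09 for PHF19. They were -0.09 and -0.84 for ARHGDIB and -0.18 and -0.67 for CCND3. Of the 10 negative genes, 6 moved by over 1.5 times with the Cy3 arrays alone and 5 with the Cy5 arrays alone. The limma adjusted p was 1.00 for each of these 20 genes, and all 20 kept their side without animal 1, with the largest shifts among the negative ones in CGN, to -0.49, and BTC, to -0.29. Of the 10 negative genes, 4 changed side under the dye reading, and 4 moved by over 1.5 times with the running median taken off, FAM98A to -0.18, BTC to -0.25, CCND3 to -0.27 and PHF19 to -0.18. The annotation gives SNAI2 the gene ID 520631, SPARC 282077, TEAD2 100125315, CGN 533725, BTC 280737 and PFKFB3 407183.

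**Figure D2:**
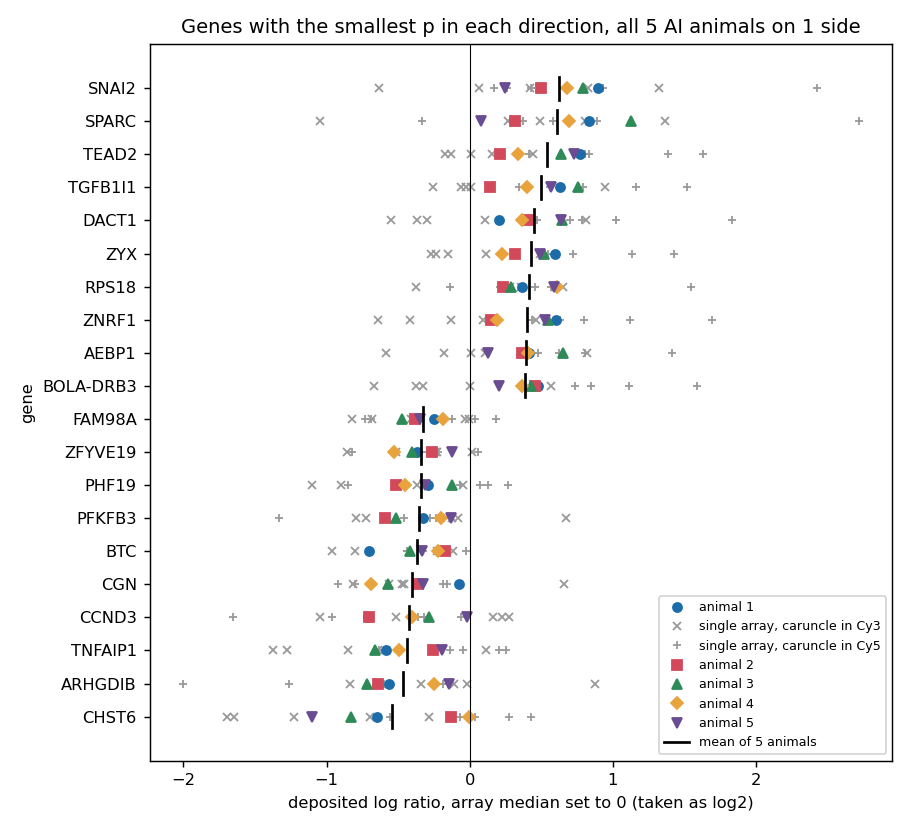
Deposited log ratio (x axis, taken as log2) of the 10 positive and 10 negative genes with the smallest p, all 5 AI animals on 1 side. Coloured symbols are animals, grey crosses the arrays with the caruncle in Cy3, grey plus signs those with the caruncle in Cy5, and black bars the means: SNAI2 is at 0.62 and CHST6 at -0.54, and single arrays reach well across 0.

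Agreement on all 10 arrays selected a different set. On the positive side were MYO1C, a membrane-linked myosin (0.36 ± 0.18, SD, n = 5), CLIP2, which links microtubules to membranes (0.25 ± 0.12), and SOX6, a transcription factor (0.24 ± 0.13). Their lowest arrays were at 0.03, 0.01 and 0.04, so that the counts rest on values next to 0. On the negative side EHF, an ETS factor of epithelia, was at -0.34, -0.15, -0.39, -0.81 and -0.20 (-0.38 ± 0.26). PARD6B, a subunit of the complex that sets epithelial polarity, was at -0.26, -0.28, -0.54, -0.10 and -0.40 (-0.32 ± 0.16). C29H11orf86, of unknown function, was at -0.25 ± 0.25, with -0.65 in animal 1 and between -0.33 and -0.02 in the others (-0.15 without animal 1), and BTC, given above, completed the negative genes. The arrays nearest 0 were at -0.02 for EHF, -0.01 for PARD6B, -0.01 for C29H11orf86 and -0.02 for BTC, so these counts too rest on values next to 0. The second probes of MYO1C and SOX6 had means of 0.08 and 0.10. None of these genes passed the test, with an adjusted p of 1.00 for each.

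Genes were then grouped in 25 lists of cell types and pathways. No member of any list passed the test, so the lists are described by counts and medians. For comparison, all 8058 genes had a median of 0.01, 52.6% had a mean above 0, and 4.24% had an unadjusted p under 0.05. The stromal and matrix list held 34 measured genes, of which 28 had a mean on the positive side and 12 an unadjusted p under 0.05, with a list median of 0.21. The median of the list was 0.32, 0.20, 0.42, 0.15 and -0.03 in animals 1 to 5, so that animal 5 did not share it. It was 0.20 without animal 1 and -0.20 with the values read as dye ratios.

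Of the stromal list, COL6A3, SNAI2 and SPARC had the largest positive means, and the fibrillar collagens came after them. COL6A3, a chain of type VI collagen, was at 0.61, 1.20, 1.12, 0.64 and -0.14 (0.68 ± 0.53, SD, n = 5), with 4 animals well above 0 and animal 5 below it. COL3A1 was at 0.98, 0.82, 0.34 and 0.19 in animals 1, 2, 3 and 5 (0.58 ± 0.38, n = 4). In animal 4 only 1 array had a value for this gene, so the animal has none. The value of animal 1 averages arrays at -1.37 and 3.34. COL1A1 was at 0.52 ± 0.55, COL1A2 at 0.40 ± 0.36 and the intermediate filament protein VIM at 0.49 ± 0.34. VIM had all 5 animals on the positive side, as did SNAI2 and SPARC.

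Of the 6 stromal genes with a negative mean, 2 lay far from the others. MGP, a matrix protein that inhibits calcification, was at -1.32, -0.82, -1.04, -1.18 and 0.49 (-0.77 ± 0.73), and CCN2, a matricellular growth factor, at -0.67, -1.02, -0.55, -0.91 and 0.71 (-0.49 ± 0.70). In both genes animals 1 to 4 were negative and animal 5 positive. The secreted WNT inhibitor SFRP1 was at -0.87, 0.90, 1.09, 1.35 and 0.06, a mean of 0.51 ± 0.91 that became 0.85 without animal 1. SFRP1 had a mean of 0.10 with the caruncle in Cy3 and 0.92 with it in Cy5.

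Epithelial genes stood mostly on the other side. Of 20 measured genes, 16 had a negative mean but only 1 an unadjusted p under 0.05. The list median was -0.16, or 0.07 with the values read as dye ratios. The median moved with single animals, to -0.26, -0.15, -0.08, -0.03 and -0.29 without animal 1, 2, 3, 4 or 5. By animal the median was 0.18, -0.18, -0.42, -0.55 and 0.14, so animals 1 and 5 were positive and animals 2, 3 and 4 negative. KRT18, a keratin of simple epithelia, was at 0.12, -0.48, -0.49, -0.80 and 0.10 (-0.31 ± 0.41). CDH1 (E-cadherin), the adhesion molecule of epithelial junctions, was at 0.42, -0.67, -0.89, -0.46 and 0.34 (-0.25 ± 0.60, or -0.42 without animal 1). The same split of the animals held for both genes, and CGN was the member with all 5 animals on the negative side.

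Genes of glands and secretion gave no common side. Of 14 measured genes, 7 had a positive and 7 a negative mean, and the median was 0.00 (-0.02 without animal 1). SERPINA14, the uterine milk protein secreted by the glands of ruminants, was at -1.17, -0.35, 0.07, 0.22 and -0.91 (-0.43 ± 0.60, or -0.24 without animal 1). SLC18A2, a vesicular amine transporter, was at 0.73, -0.94, -1.32, -1.13 and 0.92 (-0.35 ± 1.08, or -0.62 without animal 1). These genes ordered the animals differently, with animals 1 and 5 lowest for SERPINA14 and highest for SLC18A2.

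Smooth muscle genes had a median of 0.17 over 12 genes, 11 of them with a positive mean, which became 0.15 without animal 1 and -0.06 when read as dye ratios. TAGLN (transgelin), a contractile protein, was at 1.24, 0.32, 0.83, -0.38 and 0.66 (0.54 ± 0.61), and MYLK, the kinase that starts contraction, at 0.68, 0.41, 0.30, -0.16 and 0.46 (0.34 ± 0.31). Animal 4 was the exception for both. Only 4 of the 10 arrays were positive for TAGLN, and its mean rests on arrays of animals 1, 3 and 5 between 1.70 and 2.66. The second probe of MYLK had a mean of 0.13.

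**Figure D3:**
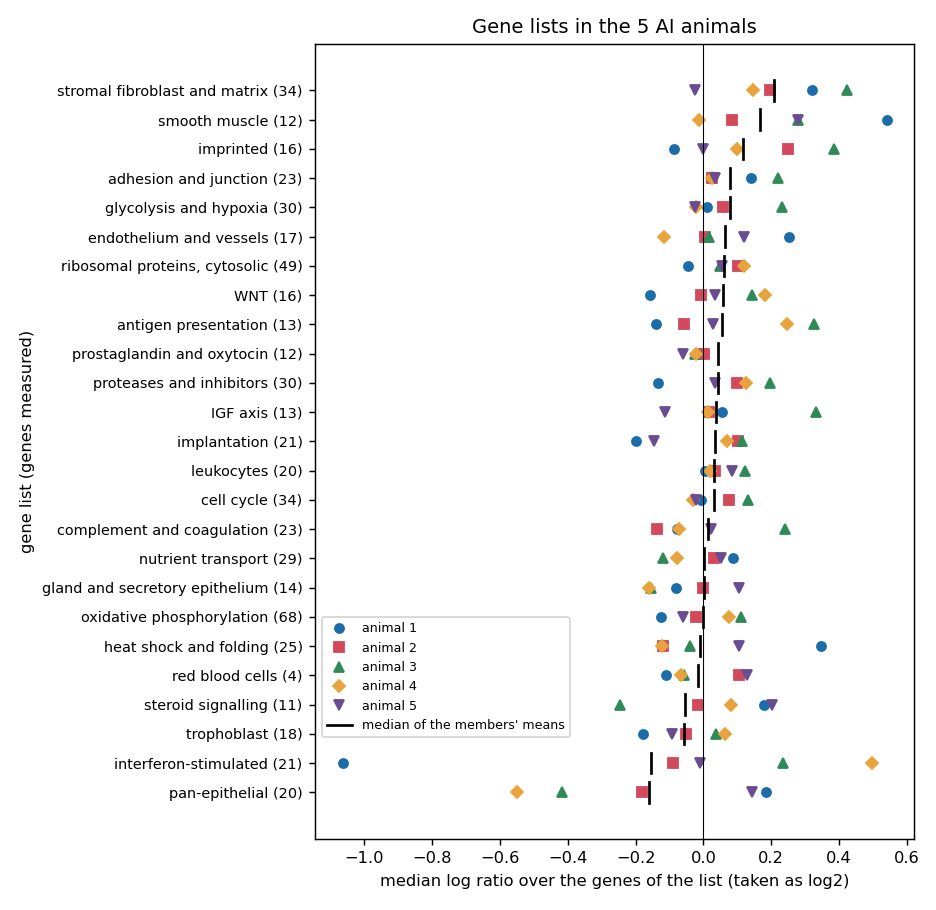
Median log ratio (x axis, taken as log2) of the genes of each of 25 lists in the 5 AI animals (coloured symbols), with the median of the members' means as a black bar and the number of measured genes in brackets. The stromal list is at 0.21, the epithelial list at -0.16, and animal 1 is the lowest for interferon-stimulated genes, at -1.06.

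Vessel, blood and immune cell genes lay close to all genes. The median was 0.06 for 17 endothelial genes, 0.03 for 20 leukocyte genes and -0.02 for 4 red blood cell genes. KDR, a receptor for VEGF, was at 0.20 ± 0.15 in the 4 animals with a value, and NOS3, the endothelial nitric oxide synthase, at 0.20 ± 0.24 over 5. CD163, a scavenger receptor of macrophages, ranged from -0.11 in animal 4 to 0.93 in animal 5. CD74, the chaperone of class II molecules, was at 0.63, -0.06, 0.49, 0.41 and 0.03 (0.30 ± 0.30). CD74 and CD163 were at 0.62 and 0.61 with the caruncle in Cy5, but at -0.02 and -0.002 with it in Cy3. The red cell genes AHSP and ALAS2 were at -0.15 ± 0.17 and -0.04 ± 0.36. Of 18 trophoblast genes, which would report conceptus tissue, 13 had a negative mean, with a median of -0.06 (0.00 without animal 1). IFNT2, an interferon tau gene, was at -0.18 ± 0.22 in 4 animals and the prolactin-related PRP1 at -0.17 ± 0.38, or -0.03 without animal 1.

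Interferon-stimulated genes had their lowest list median in animal 1, although Dixon's test over the 5 animals did not set that animal apart. ISG15, a ubiquitin-like protein induced by interferon, was at -2.56, -0.37, 0.25, 0.76 and -0.50 (-0.48 ± 1.27). MX1, an antiviral GTPase, was at -2.06, -0.41, -0.27 and -0.01 in animals 1, 2, 3 and 5, with a value on only 1 array of animal 4. IRF9, part of the factor that carries the interferon signal to the nucleus, was at -0.92, -0.09, -0.34, 0.07 and -0.20 (-0.30 ± 0.38, or -0.14 without animal 1). Animal 1 was lowest for all 3. The list median was -1.06, -0.09, 0.23, 0.50 and -0.01 in animals 1 to 5. Over animals it was -0.16 for 21 genes, and it changed to the positive side, at 0.09, without animal 1. Without any 1 of the others it lay between -0.29 and -0.14, and read as dye ratios it was 0.15.

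The low values of animal 1 came from 1 of its arrays. With the caruncle in Cy5 the list had a median of -2.30, with RSAD2 at -4.98, ISG15 at -4.91 and MX1 at -4.49. With the caruncle in Cy3 the median was -0.05, and the same genes were at 0.22, -0.22 and 0.38. On the array with the low values 2.4% of all genes lay below -1. The other 8 AI arrays had list medians between -0.10 and 0.43. Without animal 1, ISG15 had a mean of 0.03 and MX1 of -0.23.

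**Figure D4:**
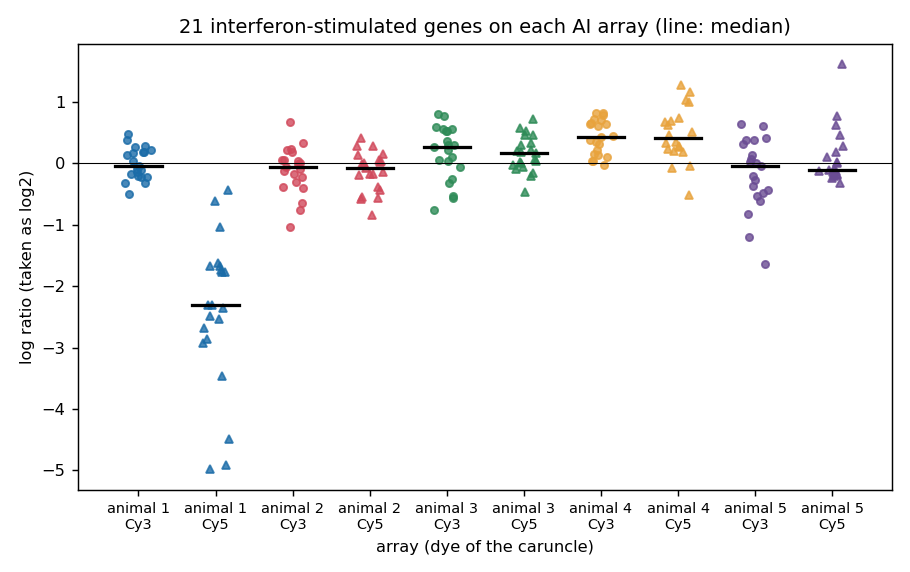
Log ratio (y axis, taken as log2) of the measured interferon-stimulated genes on each of the 10 AI arrays, with the dye of the caruncle under each array and the median as a line. The array of animal 1 with the caruncle in Cy5 has a median of -2.30 and 19 of 21 genes below -1, while the other arrays of animals 1 to 5 have medians between -0.10 and 0.43.

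The genes with the largest SD over the 5 animals were FABP3, PLET1, LOC513055, PTN and ISG15, and in all 5 animal 1 was the lowest. FABP3, a fatty acid carrier, was at -2.95, 0.48, 0.41, 0.87 and -0.94 (-0.43 ± 1.57), and PLET1, a surface protein also known from trophoblast, at -2.69, 0.83, 0.14, 0.90 and -0.91 (mean -0.35). PTN (pleiotrophin), a secreted growth factor, was at -1.86, 0.91, 1.42, 1.09 and -0.29 (0.25 ± 1.35), and LOC513055 was at -2.14 in animal 1 and between 0.25 and 1.56 in the others. Both arrays of animal 1 were low for these 4 genes, unlike for ISG15: FABP3 was at -1.82 and -4.07, PLET1 at -1.10 and -4.28, PTN at -2.26 and -1.46 and LOC513055 at -1.96 and -2.32. Animal 5 was the other animal below 0 for FABP3, PLET1 and PTN. Without animal 1 the means became 0.20, 0.24, 0.78 and 0.88 for FABP3, PLET1, PTN and LOC513055.

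Imprinted genes, expressed from 1 parental allele and many of them active in growth, had a positive mean in 14 of 16 cases. Their median was 0.12 (0.19 without animal 1, -0.04 when read as dye ratios). The list median was positive on 9 of 10 arrays but in only 3 of 5 animals, at -0.09, 0.25, 0.38, 0.10 and -0.0005 in animals 1 to 5. DLK1, a membrane protein related to Notch ligands, was at 0.16, 0.51, 0.78, 0.05 and 0.61 (0.42 ± 0.31), and MAGED1, an adaptor of cell death and differentiation pathways, at 0.36 ± 0.29. Each was positive in 5 of 5 animals, MAGED1 with animal 5 next to 0. DLK1 had a mean of 1.01 over the arrays with the caruncle in Cy5 and -0.16 over those with it in Cy3. With the running median over neighbouring probes taken off it was at 0.17. H19, a non-coding RNA, had the largest positive mean among all 8058 genes, 0.74 ± 1.25. It was at 1.38, 2.02 and 1.52 in animals 2, 3 and 4 but at -0.61 and -0.60 in animals 1 and 5. The receptor IGF2R, which clears IGF2, was at 0.35 ± 0.37, and over 13 genes of the IGF axis the median was 0.04. IGF2R had a mean of 0.04 with the caruncle in Cy3 and 0.65 with it in Cy5. IGFBP6, a binding protein for IGF2, was at 0.31 ± 0.48, carried by 1.09 in animal 3.

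Hormone genes gave single members away from 0 and lists near it. HPGD, the enzyme that inactivates prostaglandins, was at -0.76, -1.48, -1.60, -1.02 and 1.10 (-0.75 ± 1.09), so animal 5 opposed the other 4. The value of animal 1 averages arrays at 1.98 and -3.50. OXTR, the oxytocin receptor, was at 1.40 in animal 1, 0.69 in animal 3 and between -0.07 and 0.03 in the others (0.40 ± 0.64, or 0.15 without animal 1). PGR, the progesterone receptor, was at 0.37, 0.08, 0.30, 0.48 and 0.39 (0.33 ± 0.15), positive in every animal and on 9 of 10 arrays. PGR had a mean of 0.06 with the caruncle in Cy3 and 0.59 with it in Cy5. HSD17B11, a steroid dehydrogenase, was at -0.20 ± 0.27. The list medians were 0.04 for 12 prostaglandin and oxytocin genes and -0.05 (0.01 without animal 1) for 11 steroid genes.

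Proteases, adhesion and transport genes held further members with a common side. CTSK, a cathepsin that degrades collagen, was at 0.13, 0.61, 0.55, 0.36 and 0.29 (0.39 ± 0.20), positive on 9 of 10 arrays, and TIMP1, an inhibitor of matrix metalloproteinases, at 0.44, 0.20, 1.07, 0.75 and 0.02 (0.50 ± 0.42). LAMA4, a laminin chain of vessel basement membranes, was at 0.27, 0.24, 0.42, 0.31 and 0.25 (0.30 ± 0.08), and the proteoglycan SDC1 at 0.25 ± 0.20. Both pairs of genes were positive in 5 of 5 animals. Among transporters, STRA6, the receptor for retinol-binding protein, was at 0.30, 0.78, 1.38, 0.79 and -0.52 (0.55 ± 0.71), and the fatty acid transporter SLC27A6 at -0.04, -0.38, -1.28, -0.94 and -0.11 (-0.55 ± 0.54). With the caruncle in Cy3 and in Cy5 the means were 0.07 and 1.02 for STRA6, and -0.41 and -0.69 for SLC27A6. The medians were 0.04 for 30 proteases and inhibitors, 0.08 for 23 adhesion genes and 0.00 for 29 transporters.

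The lists of metabolism and housekeeping stayed within 0.08 of 0. PGK1, a glycolytic enzyme, was at 0.17, 0.21, 0.47, 0.31 and 0.31 (0.30 ± 0.12), and 7 of 7 probes for it had a positive mean, from 0.13 to 0.30. Most of the 7 were repeats of 1 sequence on the same arrays, so they do not count as independent probes. Against it stood PFKFB3, and the median of 30 genes of glycolysis and hypoxia was 0.08. The median was 0.06 for 49 cytosolic ribosomal proteins, with RPL37 at -0.29 ± 0.16 against RPS18. It was 0.00 for 68 genes of oxidative phosphorylation, with ATP5PO at -0.28 ± 0.25 and COX7C at 0.23 ± 0.16. COX7C went to -0.02 with the running median over neighbouring probes taken off. BUB3, of the spindle checkpoint, was at 0.20 ± 0.05, positive in 5 of 5 animals, beside a median of 0.03 for 34 cell cycle genes. The folding enzymes PDIA4 and PDIA3 were at 0.35 ± 0.35 and 0.32 ± 0.31, with 0.89 and 0.84 in animal 1 (0.22 and 0.19 without it). Their means were 0.85 and 0.83 with the caruncle in Cy5, but -0.15 and -0.20 with it in Cy3. The 25 heat shock and folding genes had a median of -0.01.

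The remaining lists were close to all genes as well. For 13 genes of antigen presentation the median was 0.05, and for 23 of complement and coagulation 0.01. VTN (vitronectin), a plasma adhesion protein, was at 0.14 ± 0.16, and the complement protease C1S at -0.94, 0.57, 0.66, 1.05 and 0.18 (0.30 ± 0.76), with animal 1 alone below 0 and a mean of 0.61 without it. For 16 WNT genes the median was 0.06, with AXIN2, a feedback inhibitor of the pathway, at 0.18 ± 0.19, or 0.11 without animal 1. For 21 implantation genes it was 0.04, with the receptor ERBB2 at -0.30 ± 0.38 and the signal IHH at 0.23 ± 0.31, or 0.12 without animal 1.

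The AI ratios were next set against those of the other pregnancies, which share no animal with them. Of the 73 genes named by rule, 49 had a mean on the opposite side in SCNT animals and 48 in IVF-ET animals. The same share over all genes was not computed. Over all probes the AI mean correlated with the SCNT mean at r = -0.30 and with the IVF-ET mean at r = -0.28. These correlations do not give that share, so the counts of opposite sides are not read as particular to the named genes. The difference passed for 17 of the 73 genes against SCNT and for 3 against IVF-ET, where 0.929% and 0.058% of all probes did. The genes were named by their AI values, which the difference uses again, so these counts are not independent of the choice. SNAI2 was at 0.62 ± 0.26 (SD, n = 5) in AI, -0.67 ± 0.35 (n = 5) in SCNT and -0.63 ± 0.15 (n = 4) in IVF-ET. Its difference was 1.29 ± 0.16 (SE) from SCNT, with a limma adjusted p of 0.00342, and 1.25 ± 0.17 from IVF-ET, with an adjusted p of 0.0313. CGN was at -0.41 ± 0.24 in AI and at 0.66 in both other groups, a difference of -1.07 from each (adjusted p = 0.0132 for SCNT and 0.0470 for IVF-ET). PFKFB3 was at -0.35 ± 0.20 in AI, 0.57 ± 0.27 in SCNT and 0.66 ± 0.29 in IVF-ET (adjusted p = 0.0164 and 0.0470).

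Stromal genes were among those that differed from SCNT. Of 34 measured, 13 differed, 11 to the positive and 2 to the negative side, where 0.929% of all probes did. The count was also 13 without animal 1 or 5, and 2 without animal 2, 3 or 4. They included COL6A3, with a difference of 2.37 ± 0.27 (adjusted p = 0.00265), COL3A1 with 2.28 ± 0.47 (adjusted p = 0.0383) and SPARC with 1.21 ± 0.23 (adjusted p = 0.0242). Those of opposite sign were MGP at -1.89 ± 0.39 (adjusted p = 0.0379) and CCN2 at -1.67 ± 0.28 (adjusted p = 0.0164). H19 differed by 3.21 ± 0.49, HPGD by -2.36 ± 0.41, STRA6 by 1.85 ± 0.29 and PTN by 2.11 ± 0.47. The SE and adjusted p of each difference rest on 1 spread shared by the 3 groups, which can be too small for AI. In these genes the SD over animals was 1.25, 1.09, 0.71 and 1.35 in AI, against 0.79, 0.38, 0.30 and 0.48 in SCNT. For SPARC it was 0.42 in AI and 0.48 in SCNT. Over the epithelial list 1 of 20 genes, CGN, differed, which became 4 without animal 1 or 5 and 0 without animal 2, 3 or 4, and none of 21 interferon-stimulated, 14 gland or 18 trophoblast genes passed.

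Over all probes, 128 of 13782 (0.929%) differed between AI and SCNT, 73 to the positive and 55 to the negative side, and 8 (0.058%) between AI and IVF-ET, 4 to each side. IVF-ET animal 3 was left out, since both its arrays carry the same dye label, and with it kept 1 probe passed against IVF-ET. The counts depended on single AI animals. Against SCNT they were 268, 5, 5, 7 and 235 without animal 1, 2, 3, 4 or 5, and against IVF-ET 34, 0, 0, 0 and 26. With the sign of the AI values turned, which is the other order of the tissues, 0 probes differed from either group, at unadjusted counts of 894 for SCNT and 517 for IVF-ET. None of the 73 genes differed in that reading. The differences therefore hold only if the 3 groups were deposited in the same order, which the labels do not state.

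**Figure D5:**
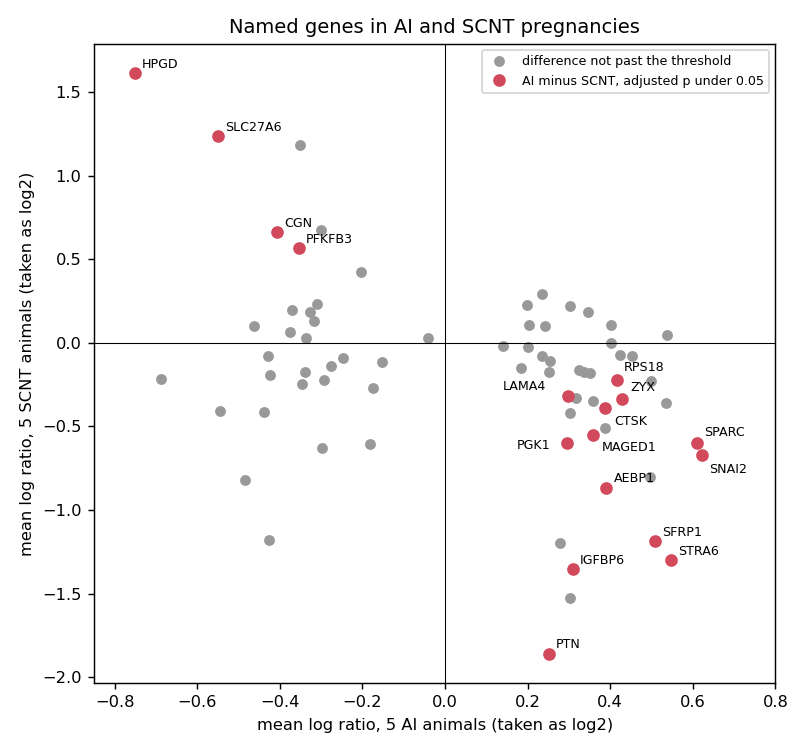
Mean log ratio (taken as log2) of the 73 named genes in the 5 AI animals (x axis) and the 5 SCNT animals (y axis). Red points are genes whose difference passed an adjusted p of 0.05, and all 17 lie in the lower right or upper left field, where the groups have opposite sides, such as SNAI2 at 0.62 and -0.67.

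The AI animals were not alike in this respect. Across probes, animals 1 and 5 correlated with the SCNT mean at r = 0.23 and 0.22, whereas animals 2, 3 and 4 correlated at -0.19, -0.46 and -0.43. With the IVF-ET mean the 5 animals correlated at 0.22, -0.30, -0.19, -0.40 and 0.03, so animal 5 was close to 0 there. In animal 1 the array with the caruncle in Cy3 correlated with the SCNT mean at 0.44, while the other array was at -0.06. The arrays of animal 5 were at 0.16 and 0.12. Animals 1 and 5 are also those with a positive epithelial median and with H19 on the negative side. HPGD stood on the SCNT side in animal 5 only, as did CCN2 and MGP.

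Read as dye ratios, the AI values gave a different outcome. With limma, 116 of 13784 probes (0.842%) then passed, 1 of them positive and 115 negative, and 61 of them carried 1 symbol. The sign in this reading is that of the arrays with the caruncle in Cy3. The urea transporter SLC14A1 was at -0.83 ± 0.10 (SE, n = 5). Its arrays lay between -1.83 and -0.26 with the caruncle in Cy3 and between 0.11 and 1.46 with it in Cy5. The gene was named by this same contrast, so the separation of its arrays is no further result. In this reading 221 of 13784 probes had every array on 1 side. SHISA2, a membrane protein of the endoplasmic reticulum, was also at -0.83 ± 0.11, and GLRB, a glycine receptor subunit, at -0.69 ± 0.09, each with an adjusted p of 0.0195. The transcription factor GATA3 was at -0.76 ± 0.11 (adjusted p = 0.0253), but its probe at spot 1735 was printed close to that of SLC14A1 at spot 1739. Of the 73 named genes, CHST6 passed in this reading (-0.57, adjusted p = 0.0312), and 50 changed side. Among the lists that changed side, the IGF axis went from 0.04 to -0.16, leukocyte genes from 0.03 to -0.11, proteases and inhibitors from 0.04 to -0.09 and gland genes from 0.00 to -0.07. The list medians also turned for WNT genes (-0.04), glycolysis and hypoxia (-0.03), transporters (-0.03), implantation (-0.02), endothelium (-0.01), red blood cells (0.01) and oxidative phosphorylation (0.04), beside the stromal, epithelial, smooth muscle, imprinted and interferon lists given above. The contrast between orientations, which this reading takes for the tissue, correlated with print order at 0.49 (Spearman, across probes), against -0.17 for the AI mean as deposited, and the part of print order in these calls was not tested.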

How the data were processed

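RNA was isolated with Trizol, labelled through aminoallyl cDNA with Cy3 or Cy5 and hybridised to bovine arrays, per the labels' protocols. The deposited values are signed log ratios per spot, taken as log2 and as already normalised by the authors, with array medians between -0.0164 and 0.019. The method, the log base and the order of the tissues are not given in the sources used here. Gene names come from the platform annotation: 8645 probes had 1 symbol, 105 several and 5074 were not listed. The gene IDs of 8620 probes matched the ARS-UCD2.0 gene table and 0 symbols changed, and no coordinates are given.

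Adjacent spots were averaged to 13824 probes, each array was centred on its median, and both arrays of an animal, which must both have a value, were averaged. A probe was tested with at least 4 of 5 animals. limma 3.58.1 in R 4.3.3 fitted the 5 AI animals alone against 0, two-sided, with Benjamini-Hochberg adjustment over all probes. Differences from IVF-ET and SCNT came from 1 fit of the 3 groups with 4 IVF-ET animals and a spread shared by the groups. The number of animals limits the precision. The code was tested on simulated data.

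Named genes are, per direction, the 10 with the smallest p among genes with every animal on 1 side, up to 5 with every array on 1 side, up to 2 members per list with the smallest p, and the 5 with the largest SD. COL6A3, COL3A1, COL1A1, COL1A2, VIM, MGP, CCN2, CDH1, H19, RSAD2 and the genes of the dye reading were named after their values were seen. The members and lists were chosen with earlier results of these data known. The alternatives tried were the dye reading, arrays of 1 orientation, centring, scaling, single spots, complete probes, weights, a robust fit, a fit of the 3 groups, IVF-ET animal 3, a turned sign and each animal left out. A fit of single arrays with an orientation term was added after the data were seen. So were the orientation means or their contrast taken off, and a running median over 51 probes taken off.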

Additional observations from a re-analysis of the deposited data

Results flagged for a closer look

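Among the 73 named genes and the 25 lists, no animal stood apart from the other 4 by Dixon's test. Over the 10 arrays 3 lists had 1 array apart, and chance gives about 1 such array in 20 groups. Interferon-stimulated genes had a median of -2.30 on the array of animal 1 with the caruncle in Cy5, where the other 9 arrays lay between -0.10 and 0.43. WNT genes had a median of -0.35 on the other array of animal 1, against -0.06 to 0.21 elsewhere. Gland genes had a median of 0.32 on the array of animal 5 with the caruncle in Cy5, against -0.22 to 0.06.

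The AI ratio differed from that of other pregnancies, by the limma contrast, for named genes, whose choice used the same AI values. Against IVF-ET the difference was 1.25 for SNAI2, -1.07 for CGN and -1.02 for PFKFB3. Against SCNT, genes of matrix, adhesion and mesenchyme differed by 1.29 (SNAI2), 1.21 (SPARC), 1.26 (AEBP1), 1.70 (SFRP1), 0.76 (ZYX) and 0.62 (LAMA4). The collagen protease CTSK differed by 0.78, the growth factor PTN by 2.11 and the binding protein IGFBP6 by 1.66. MAGED1 differed by 0.91, the retinol receptor STRA6 by 1.85, PGK1 by 0.90 and RPS18 by 0.64. On the negative side stood HPGD with a difference of -2.36, SLC27A6 with -1.78, CGN with -1.07 and PFKFB3 with -0.92. None of these passed with the AI sign turned.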

How the results depend on the processing

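The tissues were paired, since each array holds both tissues of 1 animal and the ratio tested is taken within the animal. Pairing between the groups was not possible, because the replicate numbers name different animals in each group. The test against 0 gave 0 probes in every alternative run but the dye reading, which gave 116, and the smallest adjusted p among the others was 0.0776. That reading turns 1 array of each pair, so the median correlation of the 2 arrays went from -0.0844 to 0.0844 by construction. Probes with every animal on 1 side went from 655 to 2191 and those with every array on 1 side from 12 to 221. With a running median taken off 6 probes had every array on 1 side, and 1 of these was among the 12. Leaving out 1 animal gave between 1180 and 1740, and between 29 and 91. AI minus SCNT gave 128 probes, and between 5 and 268 without 1 AI animal. AI minus IVF-ET gave 8, between 0 and 34 without 1 AI animal, and 1 with IVF-ET animal 3 kept. The dye reading and the turned sign gave 0 for both differences. Of the 73 named genes, 50 changed side under the dye reading, 12 with the Cy3 arrays alone, 4 with the Cy5 arrays alone, 3 without animal 1 and 3 without animal 3, and CHST6 alone gained a call (-0.57, adjusted p = 0.0312). Scaling and the running median changed the side of 1 gene each, and the remaining alternatives of none. The running median moved 21 of the 73 by over 1.5 times, the Cy3 arrays alone 51 and the Cy5 arrays alone 46. Of 25 lists, 16 changed side under the dye reading, 4 under scaling, and 6, 3, 6, 3 and 4 without animal 1, 2, 3, 4 or 5. Signal over background is not known here.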
